A study of Mus musculus with 28 samples.

Results

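The salivary gland sort compared 3 libraries of GFP+ cells with 3 libraries of GFP- cells, all from mice carrying the H2B-GFP reporter at 9 months of age. These 6 libraries were chosen by their labels (gland, GFP status and age) from the 28 of a series on quiescent cells of the thyroid gland, and they are the salivary libraries of that series. The other 22 libraries came from thyroid, of which the 6 taken at 9 months, again 3 per fraction, are used here for comparison. Cells were sorted fresh, and their polyadenylated RNA was sequenced from the 3′ end. The labels do not give the promoter that drives the reporter, any labelling and chase schedule, the sex or number of animals, pooling, or which of the salivary glands were taken. Nothing in the labels says that replicates are different animals, and the p-values measure the spread between these libraries, which may be technical. The reporter's own transcript was not analysed here.

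H2B-GFP is a histone fused to a fluorescent protein. Once its synthesis stops, a cell that divides shares the labelled histone between its daughters, so cells that divide rarely stay bright; without a chase, brightness follows the activity of the promoter instead. The mouse salivary glands are built from acini, which make and secrete salivary proteins, and from ducts, of which the granular ducts of the submandibular gland store epidermal growth factor and kallikrein proteases. Mitochondrial transcripts are read from the organelle's own small genome and encode its ribosomal RNA and a set of respiratory chain subunits.

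Depth differed between the fractions. GFP+ replicates 1, 2 and 3 held 993, 11795 and 79225 reads in genes, and GFP- replicates 1, 2 and 3 held 76584, 36095 and 188657. GFP+ replicate 1 detected 121 genes and GFP+ replicate 2 detected 954, against 2141 to 7466 in the other 4 libraries. GFP+ replicate 3 supplied 86.1% of the pooled GFP+ reads, so that pooled GFP+ values are mostly values of that library. Reads outside genes made up 64.8% and 48.9% of all reads in GFP+ replicates 1 and 2, 22.3% in GFP+ replicate 3 and 13.3 to 23.1% in the GFP- libraries. A gene with 0 reads could still have reached 3021 CPM (reads of a gene per 1000000 reads in genes) in GFP+ replicate 1, 254 CPM in GFP+ replicate 2 and 37.9 CPM in GFP+ replicate 3, and 15.9 to 83.1 CPM in the GFP- libraries, taking 3 reads as the limit that a count of 0 allows. Intervals and limits here cover counting error only. The 24 acinar genes took 2.91 to 11.3% of reads in the GFP- libraries, 2.36% and 3.06% in GFP+ replicates 2 and 3, and at most 0.0507% in the thyroid libraries of the same age. GFP+ replicate 1 had 0 acinar reads (upper limit of the exact Clopper-Pearson 95% interval 0.371%), and its salivary products came to 4 reads, 2 of Mucl2 and 2 of Klk1.

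The GFP+ libraries carried a larger share of mitochondrial transcripts and a smaller share of nuclear transcripts than the GFP- libraries. Genes of the mitochondrial genome took 66.3%, 68.6% and 61.7% of the reads in genes of GFP+ replicates 1 to 3, and 48.4%, 41.5% and 38.3% of those of GFP- replicates 1 to 3. All 3 GFP+ libraries stood above all 3 GFP- libraries, with means of 65.5 ± 3.52% against 42.8 ± 5.15% (SD, n = 3 each). The difference of 22.8 percentage points had an exact two-sided permutation p of 0.1, which is the smallest that 3 against 3 libraries can give. Nuclear transcripts outside ribosomal RNA took 26.3%, 18.1% and 20.7% in GFP+ and 30.0%, 45.8% and 37.2% in GFP-, again without overlap (exact permutation p = 0.1). Leaving out the shallow GFP+ replicate 1 could not bring about an overlap, so it is no check on either order. Cytosolic and mitochondrial ribosomal RNA together overlapped between the fractions, at 53.4 to 63.8% against 38.9 to 60.4% (exact permutation p = 0.6). In bulk libraries a smaller number of cells of a type and less RNA per cell cannot be told apart. The share of reads outside genes was high in 2 of the 3 GFP+ libraries, and its part in these shares was not tested; GFP+ replicate 3, with 22.3% outside genes, had 61.7% mitochondrial reads, and GFP- replicate 3, with 23.1%, had 38.3%. The thyroid sort of the same age showed the reverse order, with 16.7 to 18.2% mitochondrial reads in GFP+ and 18.9 to 23.5% in GFP-.

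**Figure D1:**
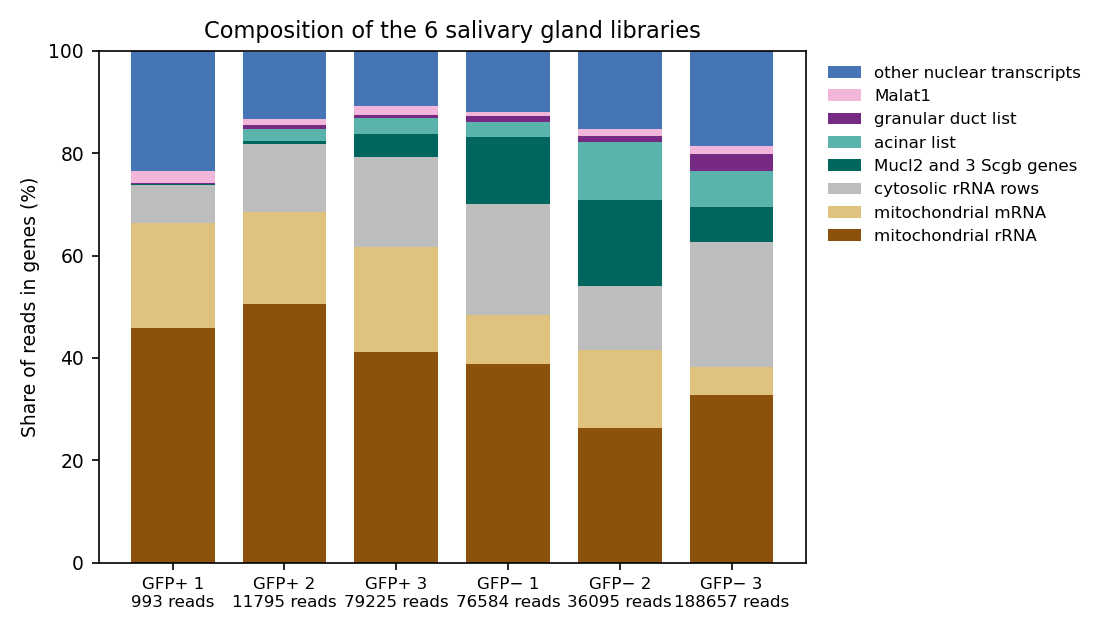
Share of reads in genes (%, vertical axis) by class of transcript in each of the 6 salivary libraries, with the number of reads in genes under each bar. The 2 brown classes, mitochondrial messenger and ribosomal RNA, reach 61.7 to 68.6% in the GFP+ bars and 38.3 to 48.4% in the GFP- bars. The dark green class (Mucl2 and secretoglobins) and the purple granular duct class are thinner in GFP+. The light green acinar class overlaps, at 3.06% in GFP+ replicate 3 and 2.91% in GFP- replicate 1.

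Both parts of the mitochondrial transcriptome contributed. Mitochondrial ribosomal RNA stood at 45.9%, 50.5% and 41.1% of reads in GFP+ replicates 1 to 3 and at 38.8%, 26.2% and 32.9% in GFP-. Mitochondrial messenger RNA stood at 20.3%, 17.9% and 20.5% in GFP+ and at 9.59%, 15.2% and 5.42% in GFP-. The GFP- libraries differed more among themselves than the GFP+ libraries did, with SDs of 4.93 and 1.44 percentage points for the messenger RNA. Of the 13 mitochondrial messages, 11 had salivary reads and 10 of those had a higher pooled level in GFP+. The message of the complex I subunit mt-Nd4 (ENSMUSG00000064363) was read at 60423, 43323 and 58277 CPM in GFP+, against 25436, 48982 and 11285 CPM in GFP-. Here GFP- replicate 2 lay inside the GFP+ range. For mt-Nd2, another complex I subunit, GFP+ stood at 33233, 39847 and 43105 CPM and GFP- at 20840, 31888 and 13840 CPM. For cytochrome b, mt-Cytb, the values were 51360, 40865 and 41780 CPM against 22133, 29561 and 11608 CPM. For these last 2 genes, as for mt-Nd1, mt-Nd5 and mt-Co1, the GFP+ libraries all stood above the GFP- libraries. That is 5 of the 6 mitochondrial messages that could be tested, where 1.03% of all 974 tested genes had that order. Of the 974, 917 had 0 reads in GFP+ replicate 1 and could not have it. The 1.03% is therefore no measure to judge these messages by. The 1.03% is 10 genes and includes these 5. They are also part of the summed share given above, so they are not separate observations.

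A share of all reads depends on what else is in the library, and the secretory messages took much of the GFP- reads. The ratio of mitochondrial messenger reads to nuclear reads outside the secretory genes and Malat1 was 0.863, 1.37 and 1.92 in GFP+ replicates 1 to 3 and 0.809, 0.995 and 0.292 in GFP-, so the fractions overlapped on this scale through GFP+ replicate 1. The ratio of mitochondrial ribosomal RNA to the same nuclear reads overlapped too, at 1.95, 3.85 and 3.85 in GFP+ and 3.27, 1.71 and 1.77 in GFP-, again through GFP+ replicate 1. Without that library, which held 234 such nuclear reads, both ratios stood higher in GFP+ without overlap. Against all nuclear reads, secretory ones included, mitochondrial messenger reads came to 77.4%, 99.3% and 98.9% in GFP+ and 32.0%, 33.3% and 14.6% in GFP-, without overlap. Those other nuclear transcripts took 10.7 to 23.6% of reads in GFP+ and 11.9 to 18.6% in GFP-. The fitted log2 fold changes of mt-Nd4 and mt-Nd2 were small, at 0.35 ± 1.31 and 0.31 ± 1.32 (SE; edgeR quasi-likelihood adjusted p = 0.932 and 0.945). Both turned negative without GFP+ replicate 3 (-1.39 and -1.26), without GFP- replicate 3 (-0.08 and -0.02) and with the replicate number as a block (-0.62 and -0.59).

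Gene by gene, no transcript passed the test. The fit covered the 12 libraries at 9 months and tested 974 genes, and 0 were called at a Benjamini-Hochberg adjusted p under 0.05 in either direction (0%), by edgeR's quasi-likelihood test and by DESeq2 alike. This count depended on GFP+ replicate 3: without it edgeR called 18 genes lower, among them Mucl2, 3 secretoglobins, Prol1, Pip, Car6, Klk1b26, Klk1b16, Klk1b3, Klk1b21 and Egf, around a median of all genes that had moved to -4.68. Without GFP- replicate 2 it called 1, Klk1b8. With a filter that kept the 38 genes with at least 20 reads in 3 salivary libraries, 13 were called lower, among them Mucl2, the 3 secretoglobins, Prol1, Pip, Car6, Crisp3, Klk1b26, Klk1b22 and Klk1b11, around a median of -1.51. At an unadjusted p under 0.05, edgeR gave 97 genes (9.96%), of which 15 were higher in GFP+ (1.54%) and 82 lower (8.42%), and DESeq2 gave 109. The smallest adjusted p was 0.105, shared by 2 genes. The median fitted log2 fold change over all genes tested was -0.90, with 729 genes below 0 and 214 above; with genes at 0 reads in 1 fraction set to the bound that 3 reads give, or left out where there is none, it was -0.69. The TMM scaling factors of the salivary libraries ran from 0.269 to 7.48, the latter for GFP+ replicate 1, and with library size as the only scaling the median was -0.66. Fold changes of single genes and lists are therefore given beside the -0.90 of all genes. Of the genes tested, 917 had 0 reads in GFP+ replicate 1, 186 had 0 in all 3 GFP+ libraries, and 94 had at least 10 reads in 3 or more salivary libraries. By CPM alone, 10 genes had all GFP+ libraries above all GFP- libraries (1.03%) and 196 had all below (20.1%); without GFP+ replicate 1 these were 33 (3.39%) and 204 (20.9%).

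**Figure D2:**
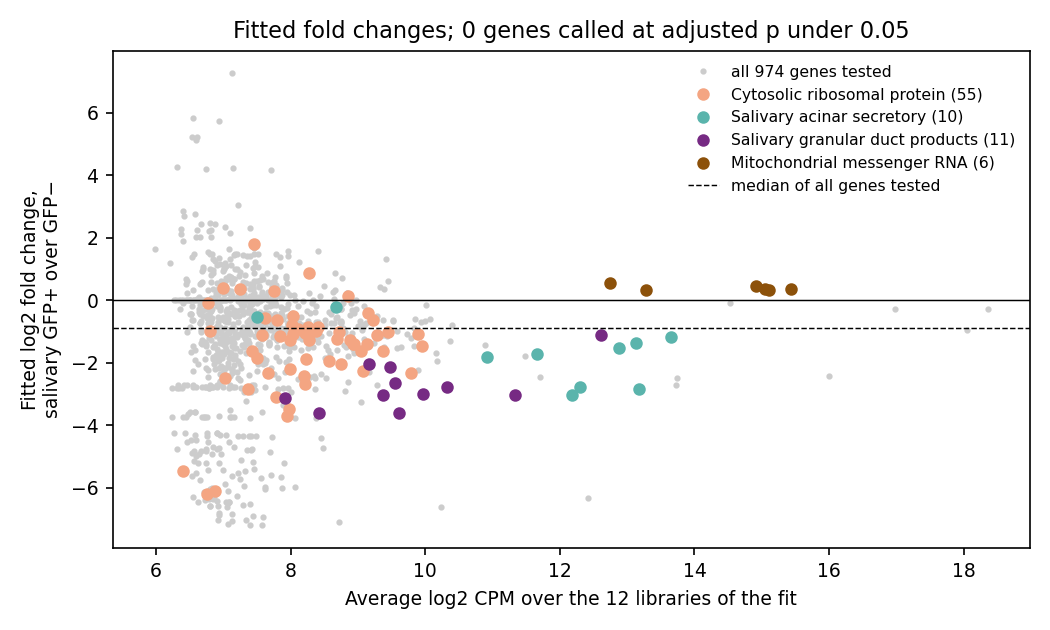
Fitted log2 fold change of salivary GFP+ over GFP- (vertical axis) against average log2 CPM over the 12 libraries of the fit (horizontal axis), 1 point per gene, with 4 gene lists in colour. The 11 granular duct genes lie between -3.60 and -1.11, below the dashed median of all genes at -0.90, and the 6 mitochondrial messages lie between 0.31 and 0.55. Fitted values of genes with 0 reads in 1 fraction are no bounds.

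The products of the granular ducts took a smaller share of all reads in genes in GFP+, and overlapped between the fractions as a share of nuclear reads. This list of 21 genes holds the growth factor Egf, the cysteine-rich secretory proteins and the tissue kallikreins, serine proteases that the granular ducts release into saliva. Summed over the list, GFP+ replicates 1 to 3 had 2014, 7461 and 6816 CPM (2, 88 and 540 reads), and GFP- replicates 1 to 3 had 12836, 11802 and 32599 CPM (983, 426 and 6150 reads). The ranges did not overlap, with means of 5430 ± 2976 and 19079 ± 11720 CPM (SD, n = 3 each), and the pooled level was 3.66-fold higher in GFP- (95% interval 3.38 to 3.98). GFP- replicate 3 held 6150 of the 7559 GFP- reads, and without it the pooled ratio was 1.83 (1.66 to 2.01). As a share of nuclear reads, a scale added after seeing the data, the list overlapped, at 0.766%, 4.13% and 3.29% in GFP+ and 4.28%, 2.58% and 8.76% in GFP-, where GFP- replicate 2 was below GFP+ replicates 2 and 3. All 19 members with salivary reads had the lower pooled level in GFP+, and Ren1 and Smr3a had no reads in the 6 libraries. Of the 11 members tested, 0 passed the adjusted threshold, 10 had an unadjusted p under 0.05 in the lower direction (8.42% of all tested genes), and 8 had non-overlapping libraries in that direction (20.1% of all); the median fitted log2 fold change was -2.99. All 11 reached the read filter in the GFP- libraries, and 1 of them also in the GFP+ libraries, so counts and median describe the list and do not test it. Without GFP+ replicate 1, where this count can only stay or rise, 8 members had non-overlapping libraries in the lower direction. On the nuclear scale 3 of the 11 did, Klk1b3, Klk1b21 and Egf, where 93 of the 965 tested genes outside the mitochondrial genome had that order (9.64%) and 11 the opposite one (1.14%). Several kallikreins resemble each other: 0 to 28.9% (median 5.70%) of the 50-base windows in the last 400 bases of 14 family members were shared with another member, so reads may be split between them.

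The main glandular kallikrein, Klk1 (ENSMUSG00000063903), had the smallest fitted difference of the 11 tested ductal genes. It was read at 2014, 5002 and 4531 CPM in GFP+ replicates 1 to 3, against 757, 4987 and 15679 CPM in GFP-, the GFP- range spanning that of GFP+. Its log2 fold change was -1.11 ± 1.34 (SE, edgeR adjusted p = 0.786) and 0.24 without GFP- replicate 3, the library that holds most of its reads. Klk1b26 (ENSMUSG00000053719), the next most abundant, separated the fractions in CPM: 0, 84.8 and 808 CPM in GFP+ against 2089, 1551 and 6801 CPM in GFP- (-3.02 ± 1.34, edgeR adjusted p = 0.412). Of nuclear reads it took 0.390% in GFP+ replicate 3 and 0.339% in GFP- replicate 2, an overlap.

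Klk1b3, Klk1b16, Klk1b21 and Egf took ranks 2, 3, 5 and 6 among the 974 genes by p, and they are named here after their values were seen. Klk1b3 stood at 0, 84.8 and 37.9 CPM in GFP+, against 509, 277 and 541 CPM in GFP-, a log2 fold change of -3.60 ± 0.97 (SE, edgeR adjusted p = 0.105), which passed the threshold in 4 alternatives, among them the fit without GFP+ replicate 3. Klk1b16 had 0, 0 and 11 reads in GFP+ and 101, 11 and 245 in GFP- (-3.60 ± 1.02, edgeR adjusted p = 0.143). Egf, the epidermal growth factor that saliva carries to the mouth and gut, was read at 0, 170 and 139 CPM in GFP+, against 1254, 499 and 684 CPM in GFP- (-3.02 ± 0.97, edgeR adjusted p = 0.286). In CPM the GFP+ libraries stood below the GFP- libraries for each of these 3 genes. As shares of nuclear reads, Klk1b3 and Egf kept that order. Klk1b16 overlapped there, at 0.0670% in GFP+ replicate 3 and 0.0665% in GFP- replicate 2. Klk1b8 had 0 reads in GFP+ and 23, 2 and 24 reads in GFP-, which puts it at least 4.99-fold lower in GFP+ with the 3-read limit taken over the group (lower end of the 95% interval 3.91); without GFP+ replicate 3 there were too few GFP+ reads for any such limit. Wfdc12, a whey acidic protein domain gene outside the list, showed a like order, with 0, 1 and 8 reads against 92, 23 and 36 (-3.27 ± 0.97, edgeR adjusted p = 0.187).

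Mouse granular ducts are known to be larger in males, and the labels give no sex. The X-inactivation transcript Xist was read in both fractions, at 0, 170 and 139 CPM in GFP+, against 52.2, 139 and 170 CPM in GFP-. Of the Y-linked genes, Ddx3y, Kdm5d and Eif2s3y had 0 reads in the 6 libraries, and Uty had 1 and 2 reads in GFP- replicates 1 and 3. These genes were looked up after the ductal values were seen, and the part of sex in the ductal difference was not tested.

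Among the most abundant nuclear messages of the GFP- libraries were Mucl2 (ENSMUSG00000036925), which encodes a mucin-like secreted protein, and genes of the secretoglobin family of small secreted proteins. Mucl2 took 89196, 117579 and 42850 CPM in GFP- replicates 1 to 3 and 2014, 4748 and 31594 CPM in GFP+. The fractions did not overlap, but the GFP+ libraries were spread more widely than the gap to GFP-, with GFP+ replicate 3 close to GFP- replicate 3. As a share of nuclear reads Mucl2 overlapped, at 0.766%, 2.63% and 15.3% in GFP+ and 29.8%, 25.7% and 11.5% in GFP-. The log2 fold change was -2.42 ± 1.36 (edgeR adjusted p = 0.572) and -6.32 without GFP+ replicate 3, where it passed the threshold (edgeR adjusted p = 0.00299). Scgb1b27 (ENSMUSG00000066583) stood at 0, 678 and 5554 CPM in GFP+, against 19782, 23216 and 9753 CPM in GFP- (-2.71 ± 1.42, edgeR adjusted p = 0.496). Scgb2b27 (ENSMUSG00000066584) stood at 0, 678 and 6400 CPM against 18398, 20502 and 12928 CPM (-2.48 ± 1.41, edgeR adjusted p = 0.573). The order of the libraries was the same for the 3 genes, from GFP- replicate 2 through GFP- replicates 1 and 3 and GFP+ replicate 3 down to GFP+ replicates 2 and 1. Of nuclear reads, Scgb1b27 took 2.68% in GFP+ replicate 3 and 2.62% in GFP- replicate 3, an overlap, and Scgb2b27 took 3.09% and 3.47%. Together with Scgb2b26, which was picked after its values were seen, they made 0.201%, 0.636% and 4.51% of reads in GFP+ and 13.2%, 16.7% and 6.85% in GFP-.

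The acinar list overlapped between the fractions. Summed over 24 genes, the acinar list stood at 0, 23569 and 30584 CPM in GFP+ replicates 1 to 3 and at 29053, 113063 and 70440 CPM in GFP-, so that GFP+ replicate 3 lay above GFP- replicate 1. Means were 18051 ± 16021 and 70852 ± 42006 CPM (SD, n = 3 each). Of 20 members with salivary reads, 19 had the lower pooled level in GFP+. Of the 10 tested, 0 were called, 2 had an unadjusted p under 0.05 in the lower direction (8.42% of all tested genes) and 3 did not overlap (20.1% of all), with a median fitted log2 fold change of -1.62; 9 of the 10 reached the read filter in the GFP- libraries and 0 in the GFP+ libraries.

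Smgc (ENSMUSG00000047295), a mucous cell product of the sublingual and young submandibular gland, stood at 0, 5765 and 10641 CPM in GFP+, against 1032, 19227 and 26445 CPM in GFP- (-1.19 ± 1.35, edgeR adjusted p = 0.755). Dcpp3 (ENSMUSG00000057417), of the demilune cell and parotid protein family, stood at 0, 8563 and 5125 CPM against 1410, 19920 and 13230 CPM (-1.38 ± 1.36, edgeR adjusted p = 0.734). For both, GFP- replicate 1 lay below GFP+ replicates 2 and 3. The 3 Dcpp genes share 32.0 to 34.1% of their last 50-base windows with each other, and their single values are uncertain for that reason.

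Prol1, Pip and Car6, named after their values were seen, had no such low value in GFP- replicate 1. Prol1, a proline-rich salivary protein, had 0, 3 and 277 reads in GFP+ and 695, 927 and 965 in GFP- (-2.85 ± 1.43, edgeR adjusted p = 0.490). Of nuclear reads it took 1.69% in GFP+ replicate 3 and 1.37% in GFP- replicate 3, an overlap. Pip, prolactin-induced protein, stood at 0, 254 and 1502 CPM against 6764, 8616 and 3244 CPM (-3.02 ± 1.43, edgeR adjusted p = 0.476). Car6, the secreted carbonic anhydrase of saliva, had 0, 1 and 158 against 590, 266 and 775 reads (-2.76 ± 1.42, edgeR adjusted p = 0.496). In GFP+ replicate 2 these genes had 3, 3 and 1 reads, where Smgc and Dcpp3 had 68 and 101. Aqp5, the water channel of acinar cells, was thinly read, with 0, 0 and 1 reads in GFP+ and 4, 6 and 11 in GFP- (pooled ratio of GFP- to GFP+ 6.41, 95% interval 1.03 to 265).

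**Figure D3:**
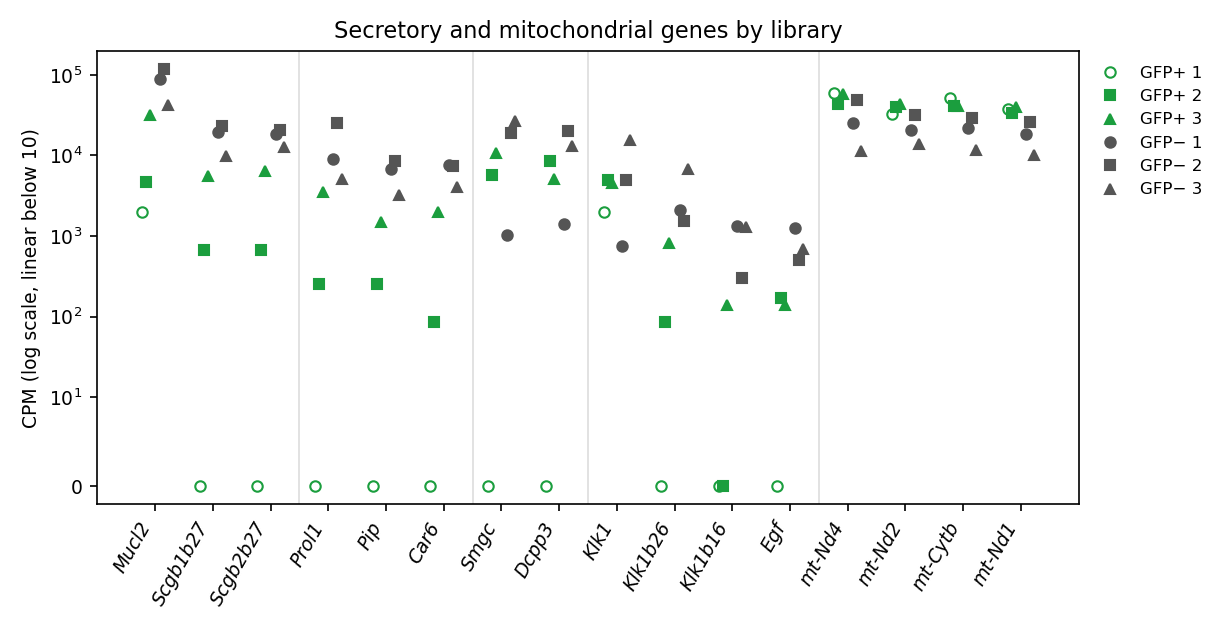
Level of 16 genes (CPM, log axis, linear below 10) in each library, GFP+ in green and GFP- in grey, with symbols for the replicate numbers. Mucl2, the secretoglobins, Prol1, Pip, Car6, Klk1b26, Klk1b16 and Egf have all green points below the grey ones, Smgc, Dcpp3 and Klk1 overlap, and the mitochondrial messages on the right are level or higher in green. As shares of nuclear reads, Mucl2, Scgb1b27, Prol1, Klk1b26 and Klk1b16 overlap too.

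The combined secretory reads (acinar, granular duct, Mucl2 and secretoglobin genes) came to 0.403%, 3.74% and 8.25% of the reads of GFP+ replicates 1 to 3 and to 17.3%, 29.2% and 17.2% of those of GFP-. Within nuclear transcripts they made up 1.53%, 20.7% and 39.8% in GFP+ and 57.9%, 63.7% and 46.1% in GFP-. The sum left the fractions apart on both scales, with GFP+ replicate 3, the deepest GFP+ library, nearest to GFP-. Mucl2 and the secretoglobins belong to none of the lists and were chosen from these same data. The sum therefore describes the libraries and does not test their order. Its parts overlapped within nuclear transcripts: Mucl2 with the secretoglobins made up 0.766%, 3.52% and 21.8% in GFP+ and 43.9%, 36.5% and 18.4% in GFP-, and the acinar list 0%, 13.1% and 14.8% against 9.70%, 24.7% and 18.9%. Relative to the other nuclear transcripts the secretory reads stood at 0.0171, 0.285 and 0.772 in GFP+ and 1.46, 1.91 and 0.924 in GFP-. The nuclear-retained RNA Malat1, chosen here after its values were seen, made up 8.81%, 6.57% and 8.60% of nuclear reads in GFP+ and 2.58%, 2.82% and 4.07% in GFP-. As a share of all reads in genes it overlapped, at 1.19 to 2.32% and 0.772 to 1.52%.

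Genes of the secretory machinery and of the ribosome took a smaller share of all reads in GFP+, and overlapped as shares of nuclear reads. The 18 genes of the secretory pathway and unfolded protein response summed to 0, 509 and 909 CPM in GFP+, against 1110, 2161 and 2179 CPM in GFP-, without overlap. All 18 had the lower pooled level in GFP+. Of 9 tested, 0 were called, 1 had an unadjusted p under 0.05 in the lower direction and 4 did not overlap, beside 8.42% and 20.1% of all tested genes, with a median of -1.46 beside -0.90. Of nuclear reads the list took 0%, 0.282% and 0.439% in GFP+ and 0.370%, 0.472% and 0.585% in GFP-, and 0 of the 9 tested members kept the fractions apart there. Hspa5, the endoplasmic reticulum chaperone BiP, stood at 0, 254 and 265 CPM in GFP+, against 339, 443 and 631 CPM in GFP- (-1.31 ± 1.09, edgeR adjusted p = 0.681). The libraries did not overlap for Hspa5 as CPM, but did as shares of nuclear reads. Outside the list, and picked after their values were seen, Serp1, a stabiliser of proteins in the endoplasmic reticulum, had 0, 0 and 6 reads in GFP+ and 24, 19 and 74 in GFP-, and P4hb, the protein disulfide isomerase, 0, 0 and 6 against 17, 9 and 78. Cytosolic ribosomal protein genes (65) summed to 6042, 5765 and 4317 CPM in GFP+, against 7482, 9004 and 9138 CPM in GFP-, also without overlap (means 5375 ± 927 and 8541 ± 920 CPM). Of nuclear reads they took 2.30%, 3.19% and 2.08% in GFP+ and 2.50%, 1.96% and 2.45% in GFP-, which overlapped. By pooled CPM, 54 had the lower and 10 the higher pooled level in GFP+. Of 55 tested, 0 were called, 11 were lower and 1 higher at an unadjusted p under 0.05, and 19 did not overlap in the lower direction, with a median of -1.26 as fitted and -1.14 with genes at 0 at their bounds. The shares over all tested genes were 8.42%, 1.54% and 20.1%, and 17 of the 55 reached the read filter in the GFP- libraries and 0 in the GFP+ libraries. On the nuclear scale 8 of the 55 did not overlap in the lower direction, beside 9.64% of all.

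Other metabolic and stress lists overlapped between the fractions in CPM. Nuclear genes of oxidative phosphorylation (38), which encode the respiratory chain subunits that the mitochondrial genome lacks, summed to 0, 3052 and 2651 CPM in GFP+, against 2729, 4239 and 3854 CPM in GFP-. GFP+ replicate 2 lay above GFP- replicate 1, so the nuclear genes overlapped where the summed mitochondrial messages did not. Of nuclear reads they took 0%, 1.69% and 1.28% in GFP+ and 0.911%, 0.925% and 1.03% in GFP-, so that GFP+ replicates 2 and 3 stood above the GFP- libraries on that scale and GFP+ replicate 1, with 0 reads, below. Of 24 tested, 0 were called and 1 was lower at an unadjusted p under 0.05 (median -0.76). Such counts, for this list and those below, stand beside 8.42% of all tested genes, and the medians beside -0.90. Heat shock and chaperone genes (12) stood at 2014, 933 and 1565 CPM against 1711, 1912 and 2592 CPM, with 0 of 9 called and 3 lower at an unadjusted p under 0.05 (median -1.26). Antioxidant and selenoprotein genes (20) stood at 2014, 339 and 719 CPM against 1045, 1136 and 1071 CPM, with 0 of 10 called, 1 lower at an unadjusted p under 0.05, and a median of -1.68 as fitted and -0.82 with bounds. For both of these lists the 2 deeper GFP+ libraries stood below all GFP- libraries, while the 2 reads of GFP+ replicate 1 put that library at 2014 CPM. Immediate early genes, which respond to tissue dissociation within minutes, summed to 2014, 2543 and 2890 CPM in GFP+, against 2272, 2798 and 5831 CPM in GFP-, and overlapped (0 of 17 called, 5 without overlap in the lower direction beside 20.1% of all tested genes, median -0.67).

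**Figure D4:**
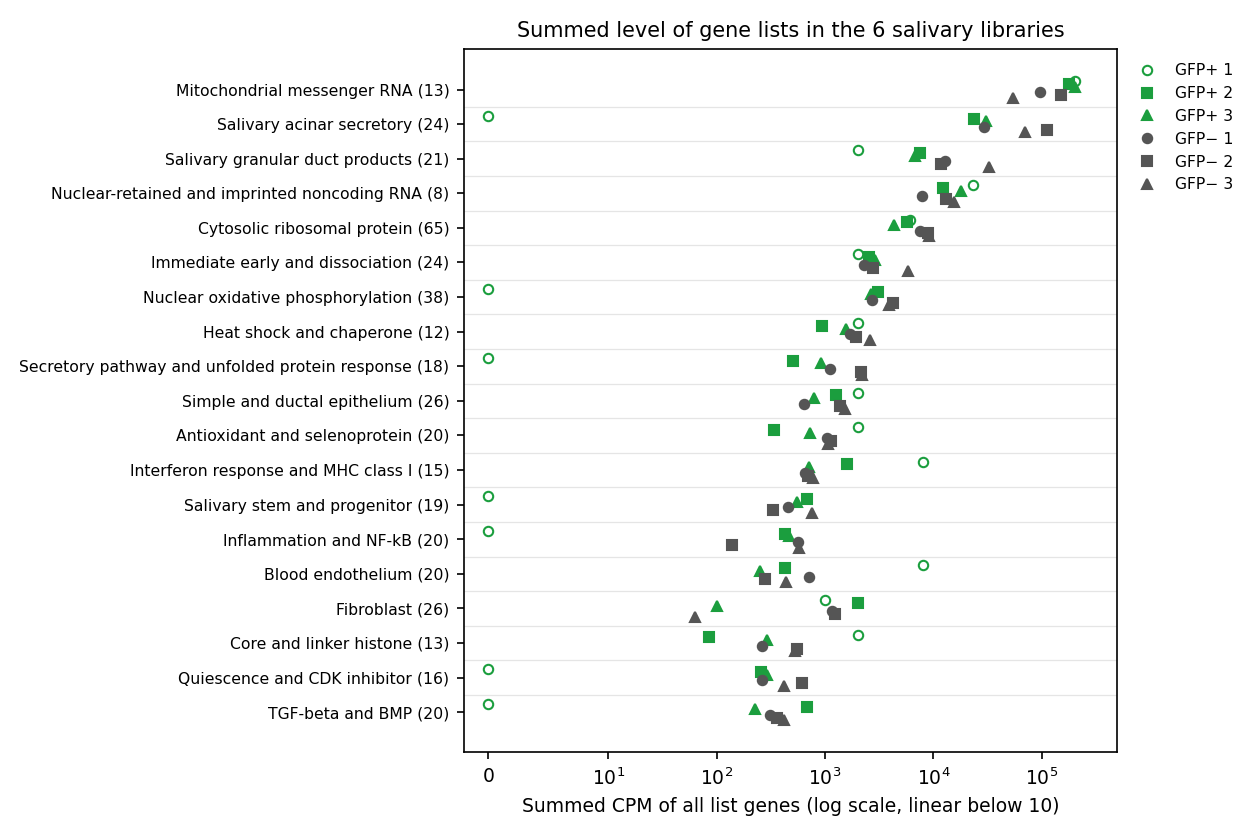
Summed CPM of all genes of a list (horizontal log axis, linear below 10) in each of the 6 salivary libraries, for the 19 lists with at least 100 salivary reads, with the number of genes in the list. GFP+ (green) lies apart to the right of GFP- (grey) for mitochondrial messenger RNA and apart to the left for granular duct products, ribosomal proteins and the secretory pathway, which overlap as shares of nuclear reads; the open circles of GFP+ replicate 1 rest on few reads.

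Markers of slow cycling, progenitor state and division gave little to compare. Genes of quiescence and of CDK inhibitors (16) had 0, 3 and 23 reads in GFP+ and 20, 22 and 79 in GFP- (0, 254 and 290 against 261, 610 and 419 CPM). The CDK inhibitor Cdkn1a had 0, 3 and 0 reads against 3, 1 and 5, and Cdkn1b had 0 in GFP+ and 5 in GFP- replicate 3. The 18 cell cycle genes had 0, 1 and 8 reads in GFP+ and 7, 1 and 12 in GFP-; the 8 reads of GFP+ replicate 3 were of cyclin D1, Ccnd1, and 13 members, among them Mki67, Top2a, Cdk1 and Ccnb1, had 0 reads in the 6 libraries. Transcripts of mitosis were thus not detected in either fraction at this depth. Salivary stem and progenitor genes (19) stood at 0, 678 and 555 CPM against 457, 332 and 758 CPM. Within them Sox9, a regulator of salivary progenitors, had 0, 1 and 18 reads against 5, 3 and 45, and Cd24a 0, 5 and 12 against 7, 4 and 34. Of the 4, 2 and 7 members tested in these 3 lists, 0 were called and 0 had an unadjusted p under 0.05. As shares of nuclear reads, GFP+ replicates 2 and 3 stood above all GFP- libraries for each list. Progenitor genes took 0.376% and 0.268% there, against 0.0726 to 0.204% in GFP-. For quiescence genes the gap was small, at 0.141% and 0.140% against 0.0872 to 0.133%. GFP+ replicate 1, with 0 reads of each list, stood below, so the fractions overlapped. The cell cycle value of GFP+ replicate 2 was 1 read. Secretory reads made up 46.1 to 63.7% of nuclear reads in GFP- and 20.7% and 39.8% in GFP+ replicates 2 and 3. Other genes thereby gain share in GFP+ on this scale. The inflammation and nuclear oxidative phosphorylation lists had the same order there, so it is not particular to these lists.

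General epithelial genes were present in both fractions. The 26 genes of simple and ductal epithelium summed to 2014, 1272 and 795 CPM in GFP+, against 640, 1385 and 1542 CPM in GFP-, with 18 members lower and 8 higher in pooled GFP+ reads. Of 6 tested, 0 were called (median -0.94). The epithelial transcription factor Ehf had 0, 5 and 8 reads in GFP+ and 13, 13 and 48 in GFP-, and the adhesion molecule Epcam 0, 3 and 4 against 4, 8 and 37. Basal and myoepithelial genes (12) had 0, 0 and 4 reads against 8, 4 and 21, with Trp63, Krt15, Krt17, Cnn1, Oxtr, Actg2 and Col17a1 at 0. The keratins Krt5 and Krt14 had 0 reads in GFP+ and, summed over the GFP- libraries, 2 and 5.

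Cells of other types left few reads, unevenly spread over the libraries. Fibroblast genes (26) stood at 1007, 2035 and 101 CPM in GFP+, against 1149, 1247 and 63.6 CPM in GFP-: replicate 3 was the lowest in each fraction, and the fractions overlapped. In GFP+ replicate 1 this rested on 1 read. Blood endothelial genes (20) had 8, 5 and 20 reads in GFP+ and 55, 10 and 82 in GFP-, which is 8056, 424 and 252 CPM against 718, 277 and 435 CPM; the 8 reads of GFP+ replicate 1 were 4 of Fabp4 and 4 of Esam, while Cdh5, Kdr and Pecam1 had 0 there. Pericyte genes (11) had 0, 0 and 1 reads against 5, 2 and 2, Schwann cell genes (8) 0, 1 and 0 against 1, 5 and 6, and red cell genes (5) 0, 0 and 1 against 13, 3 and 8. Of the tested members of the fibroblast (24), endothelial (10), pericyte (2) and red cell (4) lists, 0 were called and 0 had an unadjusted p under 0.05. Of these, 24, 9, 1 and 4 reached the read filter in a thyroid group.

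Markers of immune cells gave few reads. Lymphatic endothelial, T and NK cell, and B and plasma cell genes had 0 reads in GFP+ and 1, 2 and 1 in GFP-, and neutrophil and mast cell, adipocyte and skeletal muscle genes had 0 in the 6 libraries. Macrophage and dendritic cell genes (17) had 0, 0 and 5 reads against 9, 2 and 3. MHC class II genes (7) had 0, 0 and 2 reads in GFP+ and 27, 2 and 6 in GFP-. Genes of the thyroid and parathyroid lists were read in GFP-. Thyroid genes (11) had 8, 4 and 6 reads, among them 7, 3 and 1 of thyroglobulin, Tg. Parathyroid genes (4) had 5, 3 and 1, of which the 5 and 3 in replicates 1 and 2 were parathyroid hormone, Pth. Of these, Tg and Pth are transcripts that salivary cells should lack. Both lists had 0 in GFP+. By pooled reads this puts the thyroid genes at least 1.83-fold lower there (lower end of the 95% interval 1.34). Without GFP+ replicate 3 there were too few GFP+ reads for a limit. Of the list's GFP- reads, 5 were of Dio1, all in replicate 3. For Tg alone the limit was 1.12-fold and the interval began at 0.766, which does not exclude an equal level. For the parathyroid genes a difference was not detectable at this depth. The remaining signalling lists overlapped between fractions in CPM: inflammation and NF-kB (0, 424 and 467 against 561, 139 and 578 CPM), interferon and MHC class I (8056, 1611 and 707 against 653, 693 and 774 CPM), TGF-beta and BMP (0, 8 and 18 against 24, 13 and 79 reads), Wnt (0, 170 and 151 against 366, 55.4 and 244 CPM), IGF and FGF (0, 763 and 25.2 against 366, 194 and 133 CPM) and histones (2014, 84.8 and 290 against 261, 554 and 530 CPM). As shares of nuclear reads the interferon and MHC class I genes stood higher in GFP+ without overlap, at 3.07%, 0.892% and 0.341% against 0.218%, 0.151% and 0.208%. In GFP+ replicate 1 that was 8 of 261 nuclear reads. Secretory reads made up more of the nuclear reads in GFP-, so other genes gain share in GFP+ on this scale. Of the 7 tested members 2 had that order, beside 1.14% of all. That 1.14% is no fair measure, because 917 of the 974 tested genes had 0 reads in GFP+ replicate 1 and could not have it. B2m, the light chain of MHC class I, had 6, 8 and 22 reads against 10, 12 and 48. In these 6 lists 0 of 9, 7, 8, 3, 8 and 1 tested members were called and 0 had an unadjusted p under 0.05. The nuclear-retained and imprinted RNAs (8), nearly all Malat1 reads, stood at 23162, 12209 and 18050 against 7861, 13187 and 15441 CPM, with 0 of 3 called.

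Few genes stood higher in GFP+, and those named here were picked after their values were seen. The tubulin gene Tuba1b had 0, 3 and 6 reads in GFP+ and 0 in the 3 GFP- libraries, at least 9.82-fold higher with the 3-read limit over the GFP- group (edgeR adjusted p = 0.105). The 9 GFP+ reads carry counting error too, and the 95% interval of the ratio began at 6.46; without GFP- replicate 3, the deepest library, the limit was 3.67-fold and the interval began at 2.42. It was called in the fits without ribosomal RNA and without ribosomal RNA and mitochondrial genes. Anxa9, an annexin, stood higher in all 3 GFP+ libraries: 2, 13 and 9 reads (2014, 1102 and 114 CPM) against 3, 0 and 15 (39.2, 0 and 79.5 CPM). The value of GFP+ replicate 1 rests on 2 reads, and GFP+ replicate 3 was close to GFP- replicate 3. Anxa9 had a log2 fold change of 2.30 ± 0.79 (edgeR adjusted p = 0.319). Its pooled level was 4.37-fold higher in GFP+ (95% interval 2.27 to 8.54). It depended on the library: without GFP+ replicate 2 it was 2.30-fold (0.980 to 5.13), without GFP+ replicate 3 19.6-fold and without GFP- replicate 3 9.80-fold. The predicted gene Gm26691 had the same order, with 2, 7 and 4 reads in GFP+ against 0, 1 and 6 in GFP- (edgeR adjusted p = 0.319).

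Whether the sort separated the same genes in both glands was tested as an interaction in the same fit. Of 974 genes, 0 had a difference between the salivary and the thyroid contrast at an adjusted p under 0.05 (0% in either direction, edgeR). At an unadjusted p under 0.05 there were 89 (9.14%): 19 were more positive in salivary gland (1.95%) and 70 more negative (7.19%), and the smallest adjusted p was 0.103. DESeq2 called 1 gene, the endothelial sialomucin Emcn (interaction log2 5.34, DESeq2 adjusted p = 0.0432). Emcn rested on salivary reads of 0, 1 and 4 in GFP+ against 0, 1 and 5 in GFP-. In the thyroid sort at 9 months, 3 genes were called higher (0.308%) and 17 lower (1.75%), around a median log2 fold change of 0.06; at an unadjusted p under 0.05 there were 88 (9.03%), 45 higher (4.62%) and 43 lower (4.41%). Endothelial genes made up 7 of the 17 lower calls there, with a list median of -3.13, against 0 calls and a fitted median of -0.66 in salivary gland (0.08 with the 3 genes that have no bound left out). Fibroblast genes had medians of 1.13 in thyroid and -0.66 in salivary gland, and mitochondrial messages -0.41 and 0.35. Of the 10 endothelial and 24 fibroblast genes tested, 9 and 24 reached the read filter in a thyroid group. In either salivary fraction 0 of them did. Both lists entered the test mainly through thyroid, so their counts and medians do not show a difference between the glands. No gene of these lists had a called interaction in edgeR, so a difference between the glands was not shown for any single gene.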

How the data were processed

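Cells were sorted by GFP and their RNA was prepared with a 3′ mRNA kit, per the labels' protocols. The authors deposited 1 table of raw read counts per library, with 47643 genes and 5 summary entries; the summary entries stayed out of library sizes and tests. Reads were demultiplexed with bcl2fastq and the build was mm9, per the submitters' processing notes; the aligner, counter and strand setting are not given in the sources used here. Symbols came from a gene name table, which matched 47224 identifiers, and the other 419 held at most 0.00884% of a salivary library's reads. Names only were taken from that table, since its build differs, and no coordinates are printed.

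Counts of the 12 libraries at 9 months (4 groups) were fitted in edgeR 4.0.16 (limma 3.58.1, R 4.3.3) with TMM scaling, filterByExpr (10 reads, 15 in total) and robust quasi-likelihood tests, which left 8 residual degrees of freedom, a biological coefficient of variation of 0.479 and 974 genes. Benjamini-Hochberg adjustment ran over all of them, with a threshold of 0.05. The salivary contrast and its difference from the thyroid contrast came from this fit, without a replicate block; DESeq2 1.42.0 was an alternative. Shares of reads carry exact Clopper-Pearson intervals at 95%, and 3 against 3 shares were compared by exact permutation (SciPy 1.17.1, Python 3.11.15). Scripts were tested on simulated data.

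Depth ran from 993 to 188657 reads in genes per salivary library, 393349 in all, with 9197 genes seen. No 2 salivary libraries of the same fraction held identical values, and between any 2 of the same fraction the chi-square per degree of freedom was at least 5.43. The 36 gene lists (28 with a tested member) are described by counts, medians and summed CPM, with no set test. Shares of nuclear reads (genes outside the mitochondrial genome and ribosomal RNA) and pooled ratios with 1 library left out were added after seeing the data. The members and lists were chosen with earlier results of these data known. Genes were named by rule: called genes without overlap, up to 4 called members or else the 2 most read members of each list, the 10 most read protein-coding genes of each fraction, and called interactions; others are said to be picked after their values were seen.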

Additional observations from a re-analysis of the deposited data

Results flagged for a closer look

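Of 56 measures set side by side in the glands at 9 months, 2 had every salivary library going one way and every thyroid library the other. The share of all mitochondrial transcripts was 22.8 percentage points higher in GFP+ in the salivary gland, where each GFP+ library stood above each GFP- library. In the thyroid each GFP+ library (16.7 to 18.2%) stood below each GFP- library (18.9 to 23.5%). The share of mitochondrial ribosomal RNA was 13.2 percentage points higher in salivary GFP+ and lower in thyroid GFP+ (13.5 to 15.2% against 16.2 to 19.4%). The difference between the glands was not tested.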

How the results depend on the processing

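Of 17 alternatives to the salivary fit, 2 were chosen after seeing the data: library size as the only scaling, and leaving out ribosomal RNA and mitochondrial genes together. Genes called higher numbered 1 (Tuba1b) without ribosomal RNA and 1 without ribosomal RNA and mitochondrial genes, and 0 to 0 with 1 library left out. Genes called lower numbered 13 with at least 20 reads in 3 salivary libraries (38 genes tested), 4 with all 28 libraries, 3 without ribosomal RNA, 3 without ribosomal RNA and mitochondrial genes, and 0 to 18 with 1 library left out, the 18 without GFP+ replicate 3. For the interaction, DESeq2 called 1 gene more positive (Emcn), and leaving out libraries under 10000 reads gave 1 more negative (Fxyd3, -8.09, edgeR adjusted p = 0.0101); with 1 library left out both counts stayed at 0. The cause of these changes was not tested.

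Among single genes, the fold change of Klk1 ran from -2.58 to 0.24 with 1 library left out, that of mt-Nd4 from -1.39 to 0.86 and that of mt-Nd2 from -1.26 to 0.81; those below 0 for the mitochondrial messages included -0.08 and -0.02 without GFP- replicate 3. The other 17 genes with a printed fold change kept their direction in all fits that tested them. The median of all tested genes ran from -4.68 (without GFP+ replicate 3) to -0.05 (no filter, 14461 genes tested).

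With the replicate number as a block, 0 genes were called in either comparison (edgeR; 69 at an unadjusted p under 0.05 in the salivary one), and mt-Nd4 and mt-Nd2 stood at -0.62 and -0.59. Residuals of GFP+ and GFP- libraries with the same number correlated at 0.134, 0.0824 and 0.186, and each library correlated best with its own number. Libraries with unlike numbers correlated at -0.128 to -0.0121. Because replicate 2 fell under 0.1 and the labels do not say what a number shares, the numbers were not taken as pairs. The main fit thus leaves out any pairing that the numbers may hold, and the block takes it in. Depth limits these results: 94 of 974 tested genes had 10 reads in 3 salivary libraries, and a gene with 0 reads in GFP+ replicate 1 could have reached 3021 CPM.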
